A study of Mus musculus with 44 samples.

Results

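The 10 genes described here encode the 5 subunits of the transcription factor NF-κB (Nfkb1, Nfkb2, Rel, Rela and Relb), 3 of its cytoplasmic inhibitors (Nfkbia, Nfkbib and Nfkbie) and a pair of proteins that act in its signalling (Tnfaip3 and Traf1). They were chosen by gene symbol. All 10 were found among the 14699 genes of the expression table, and all 10 were among the 11963 genes tested. The cells were CD45+CD11c+MHCII high and had been sorted for RNA-seq from draining inguinal lymph nodes of female mice aged 8–12 weeks. Nodes were taken 24 h after the mice had received B16-F10-OVA cells, a mouse melanoma line that carries ovalbumin as a model antigen, or a sham injection of PBS. Time is given as Zeitgeber time (ZT), in hours after lights on. Mice lived in 12 h of light and 12 h of dark and were studied at ZT3, ZT9, ZT15 and ZT21.

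The 44 libraries, each from 1 mouse, form 3 groups. The group called WT holds 20 libraries (5 per timepoint) of control mice engrafted with tumour cells. The group called PBS holds 12 libraries (3 per timepoint) whose genotype is also labelled WT and whose treatment is PBS. The group called KO holds 12 libraries (3 per timepoint) of Clec9a-cre:Bmal1 flox mice engrafted with tumour cells. In these mice a Cre recombinase expressed from Clec9a, a gene of dendritic cells (DCs) and their precursors, acts on a floxed Arntl, which encodes the clock protein BMAL1, so that any deletion is limited to cells with Cre. No PBS libraries of KO mice were analysed here.

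Several features of the libraries bear on the comparisons. Arntl was at 14.8 ± 3.65 CPM (read counts scaled to library size; SD, n = 20) in WT, 19.9 ± 6.91 CPM (SD, n = 12) in the libraries labelled KO and 21.7 ± 6.11 CPM (SD, n = 12) in PBS, which are totals over the whole gene. It was higher in the libraries labelled KO than in WT (log2 difference 0.38, standard error 0.12, limma adjusted p = 0.0153) and did not pass the test against PBS (−0.14, standard error 0.17, limma adjusted p = 0.623). A lower level under the KO label was thus not found in either test, and KO stands below for libraries with that label. Mice cannot be assigned to the independent experiments from the labels, so a difference between experiments cannot be told apart from one between groups. DC genes were detected in every group. Medians in WT, KO and PBS were 38.9, 42.3 and 54.0 CPM for Itgax (which encodes CD11c), 10630, 11763 and 12613 CPM for the MHCII chaperone gene Cd74 and 606, 550 and 610 CPM for the cytokine receptor gene Flt3. Libraries of WT were shallower, with 20088012 to 28962671 reads on genes per library against 29406729 to 55799162 in KO and 28003328 to 49590054 in PBS. Markers of type 1 conventional DCs (7 genes) summed to 704–1019, 755–1028 and 907–1422 CPM in WT, KO and PBS, and those of migratory mature DCs (10 genes, Relb among them) to 21159–28700, 22208–28041 and 18033–27409 CPM. A list of 10 monocyte and macrophage markers, all of them above the filter on low values, summed to 449–1152 CPM in WT, 922–3438 CPM in KO and 1857–3371 CPM in PBS. A list of 25 immediate early and dissociation stress genes summed to 8312–13968 CPM in WT, 12942–19288 CPM in KO and 14044–21434 CPM in PBS. The 6 plasmacytoid DC markers summed to 163–255, 148–348 and 261–397 CPM in WT, KO and PBS. Markers were counted as lower or higher where they passed the test (limma, adjusted p under 0.05), as 24.6% and 13.3% of all genes did in WT against PBS and 10.2% and 23.5% in KO against WT. Between WT and PBS, 5 of these 6 were lower in WT (median log2 difference −1.87), as were 4 of 6 markers of type 2 conventional DCs (−1.72), 7 of 7 NK cell markers (−1.89) and 9 of 10 monocyte and macrophage markers (−1.34). Of 7 markers of type 1 conventional DCs 6 were lower and 1 higher (−1.05), of 14 T cell markers 9 were lower and 3 higher (−0.46), and of the 10 migratory mature DC markers, which include Relb, 4 were higher and 0 lower (0.10). Of 7 general DC markers (Itgax, Cd74 and Flt3 among them) 3 were lower and 0 higher (−0.16), and of 8 B cell markers 4 were lower and 0 higher (−0.34). Between KO and WT, 9 of 10 monocyte and macrophage markers (0.77), 5 of 7 NK cell markers (1.14), 4 of 6 markers of type 2 conventional DCs (1.04) and 2 of 2 Langerhans cell markers (0.68) were higher in KO, while of the migratory mature DC markers 2 were higher and 2 lower (−0.08). Of 6 plasmacytoid DC markers 3 were higher and 0 lower (0.63), and of 14 T cell markers 5 were higher and 2 lower (0.14). Of the 7 general DC markers 0 passed. In KO against PBS, 4.30% of all genes were lower and 5.43% higher. Lower in KO were 6 of 6 plasmacytoid DC markers (−1.13), 6 of 10 monocyte and macrophage markers (−0.68) and 3 of 7 NK cell markers (−1.07). So were 3 of 7 markers of type 1 conventional DCs (−0.69) and 2 of 6 of type 2 (−0.39). Higher in KO were 3 of 10 migratory mature DC markers (0.17) and 2 of 2 Langerhans cell markers (0.56). Of the 7 general DC markers 1 was lower and 0 higher (−0.25). The part of depth and of these lists in the differences given below was not tested.

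NF-κB proteins act as dimers. In resting cells most dimers are held in the cytoplasm by IκB proteins, among them IκBα (Nfkbia), IκBβ (Nfkbib) and IκBε (Nfkbie), until an IκB kinase marks these for degradation and the dimer enters the nucleus. NF-κB then induces genes that switch it off again, of which Nfkbia and Tnfaip3 are the standard examples. In the alternative pathway, downstream of receptors such as CD40, RANK (Tnfrsf11a) and the lymphotoxin-β receptor, the Nfkb2 product is processed to a form that pairs with RELB. DCs depend on RELB for their development and maturation.

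Feedback by NF-κB acts through κB sites in promoters, and stretches that hold the κB motif are therefore shown for the genes of this set. Promoter windows (the 250 bases upstream of a RefSeq start, build GRCm38.p6) were at hand for 8 of the 10 genes, all but Nfkb1 and Relb, and for 11 starts in all. They were searched on both strands for the 10-base κB consensus and for the E-box CACGTG, a motif bound by clock proteins. A κB match was present in the windows of 5 of these 8 genes, in 7 of the 11 windows, against 7.25% of all 32851 promoter windows. The E-box was present in 1 window, that of Tnfaip3 (28 to 33 bases upstream of its start), against 6.02% of all windows. A match is a run of letters and not a measured site of binding. The stretches of 30 bases around the matches are printed 5′ to 3′ on the strand of the gene, with the κB match in capitals (overlapping matches are merged).
Nfkbia (chr12:55492657-55492686, minus strand): tgactggcttGGAAATTCCCcgcgcctgac
Tnfaip3, distal match (chr10:19015516-19015545, minus strand): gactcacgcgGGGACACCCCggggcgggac
Tnfaip3, proximal match (chr10:19015403-19015432, minus strand): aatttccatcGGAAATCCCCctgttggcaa
Rel (chr11:23771042-23771071, minus strand): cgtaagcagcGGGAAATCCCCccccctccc
Nfkbie (chr17:45555584-45555613, plus strand): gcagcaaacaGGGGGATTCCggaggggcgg
Nfkb2, upstream start, distal match (chr19:46304688-46304717, plus strand): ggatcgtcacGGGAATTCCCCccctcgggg
Nfkb2, upstream start, proximal match (chr19:46304716-46304745, plus strand): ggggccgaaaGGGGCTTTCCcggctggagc
Nfkb2, middle start (chr19:46305449-46305478, plus strand): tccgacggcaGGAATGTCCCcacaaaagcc
Nfkb2, downstream start (chr19:46305695-46305724, plus strand): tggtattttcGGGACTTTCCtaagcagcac
The matches nearest to a start were those of Nfkbia (20 to 29 bases upstream), the proximal one of Tnfaip3 (3 to 12 bases) and both at the upstream start of Nfkb2 (2 to 11 and 29 to 39 bases). No κB match was found in the windows of Rela, Nfkbib and Traf1, which says only that these letters are not in the windows. Some windows with a match overlapped annotated exons. For the upstream, middle and downstream starts of Nfkb2 the overlap was 250, 167 and 234 of the 250 bases. It was 110 bases for the Tnfaip3 window with matches, 1 base for Rel and 0 for Nfkbie. The window of Nfkbia, which overlaps no annotated exon, is given whole because this gene has the highest level of the 10 and was called in both comparisons with WT (chr12:55492648-55492897, minus strand).
Nfkbia promoter: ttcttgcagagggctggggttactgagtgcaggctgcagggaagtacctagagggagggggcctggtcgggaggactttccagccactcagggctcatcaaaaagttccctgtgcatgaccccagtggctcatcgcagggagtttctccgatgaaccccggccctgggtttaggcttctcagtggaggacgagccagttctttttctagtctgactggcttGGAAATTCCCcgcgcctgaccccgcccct

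To compare levels between genes, CPM were divided by exon length, since a longer gene collects more reads. This length merged all annotated exons of a gene (1.61 kb for Nfkbia, 8.82 kb for Traf1 and 12.06 kb for Nfkb1). It can exceed that of a single mRNA, so the order given here depends on the annotation. The genes spanned a wide range. Nfkbia had the highest level, 1911 ± 295 CPM per kb of exon (SD over 44 libraries), and Relb followed with 325 ± 42.2 CPM per kb. Both held these ranks in all 44 libraries. Nfkbib, Rela, Nfkb2, Tnfaip3, Nfkbie and Traf1 lay close together, with means from 104 to 134 CPM per kb, and neighbours in this order were found in the same order in only 20 to 33 of 44 libraries. Rel (10.6 ± 1.95 CPM per kb in WT; SD, n = 20) and Nfkb1 (4.86 ± 0.615 CPM per kb in WT; SD, n = 20) were lowest. Traf1 exceeded Rel in all 44 libraries and Rel exceeded Nfkb1 in 43. Among the subunits the order was therefore Relb first, Rela and Nfkb2 at similar levels, then Rel and Nfkb1. Both partners of the alternative pathway, Relb and Nfkb2, were thus above Nfkb1 in CPM per kb of annotated exon.

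**Figure D1:**
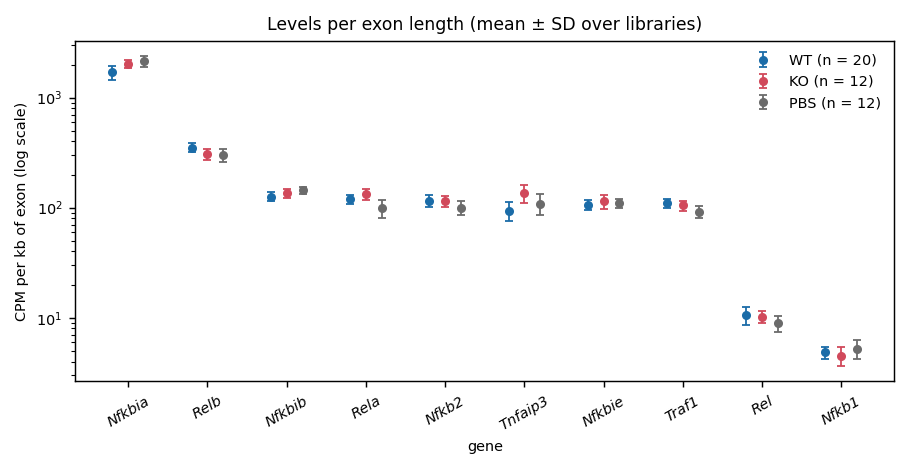
Level of each gene in CPM per kb of exon, on a log axis, in WT, KO and PBS. Points are means and bars are SD over libraries (n = 20, 12 and 12). Nfkbia stands at the top, Relb second, Rel and Nfkb1 at the bottom, with the other 6 genes between 104 and 134 CPM per kb over all libraries.

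Whether these genes depend on time of day was asked in each group with a 24-h cosinor, with a test of any difference among the 4 timepoints and with the contrast of ZT9 and ZT21. None of the 10 genes was called in the main fit of any of these tests. A call needed a limma adjusted p under 0.05, with a change of at least 2-fold for ZT9 against ZT21. The cosinor called 0.0251% of all genes tested in WT, 0.00% in KO and 0.00% in PBS. At an unadjusted p under 0.05 it called 0 of the 10 genes in WT, 0 in KO and 2 in PBS, against 9.20%, 10.5% and 7.38% of all genes. The test among timepoints called 5.28% of all genes in WT, 0.00% in KO and 0.00% in PBS, and at an unadjusted p under 0.05 it called 1 of the 10 genes in WT, 0 in KO and 1 in PBS against 23.1%, 10.3% and 7.44%. For ZT9 against ZT21 the shares of all genes called were 0.0669%, 0.00836% and 0.00%, and no member had an unadjusted p under 0.05 in any group, against 11.5%, 10.9% and 5.32% of all genes.

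The members nearest to a time-of-day difference in WT were Rel and Nfkbia. Rel, which encodes the subunit c-Rel, was at 69.9, 79.7, 89.6, 96.0 and 114 CPM at ZT3 and at 58.6, 62.3, 66.1, 74.1 and 78.8 CPM at ZT21. The lowest mouse at ZT3 was below the 2 highest at ZT21, so the timepoints overlapped. Means of Rel were 89.8 ± 16.7, 83.9 ± 14.4, 74.4 ± 9.51 and 68.0 ± 8.35 CPM (SD, n = 5) at ZT3, ZT9, ZT15 and ZT21, and the cosinor gave an amplitude of 0.20 on the log2 scale with a peak at 6.2 h (limma adjusted p = 0.545). Nfkbia in WT was lowest at ZT9, with 2179, 2182, 2405, 2496 and 2742 CPM, and highest at ZT15, with 2787, 2861, 2873, 3049 and 3806 CPM. Every mouse at ZT15 was above every mouse at ZT9. These timepoints were picked after their values were seen, and they did not overlap for 11.7% of all genes (2 of the 10 members, Nfkbia and Traf1, the latter lower at ZT15), while 19.4% of all genes had at least 1 pair of WT timepoints without overlap. The test among the 4 timepoints, which covers all of them and not only this pair, gave a limma adjusted p of 0.192 (unadjusted p = 0.0397). With array weights, which give noisier libraries less influence, the limma adjusted p was 0.0421, and Nfkbia was called. Several lists of other genes were likewise lowest at ZT9 and highest at ZT15 in WT. The sum of the 10 monocyte and macrophage markers went from 521 ± 73.0 to 1043 ± 117 CPM (SD, n = 5), and 8 of the 10 passed the test among timepoints. The immediate early list went from 9358 ± 1076 to 12647 ± 1807 CPM (SD, n = 5), with 6 of 25 genes past the test. The 7 NK cell markers went from 19.5 ± 1.77 to 41.1 ± 11.8 CPM (SD, n = 5), with 3 past the test. The sum of the 7 general DC markers went from 15959 ± 1598 to 22663 ± 3514 CPM (SD, n = 5), with 0 past the test. Cd74 made up the largest part of this sum, with means of 9110 CPM at ZT9 and 13352 CPM at ZT15. Means of H2-Aa, H2-Ab1, H2-Eb1 and Itgax were also higher at ZT15 than at ZT9. Flt3 and Zbtb46 of the same list went the opposite way, from means of 688 to 506 CPM and of 175 to 101 CPM. Other lists ran the opposite way, highest at ZT9 and lowest at ZT15. The 30 adaptor and kinase genes of the pathway went from 3078 ± 211 to 2303 ± 206 CPM (SD, n = 5), with 1 past the test, the 7 markers of type 1 conventional DCs from 904 ± 74.2 to 746 ± 41.5 CPM (SD, n = 5) and the 2 Langerhans cell markers from 70.3 ± 12.3 to 62.1 ± 3.73 CPM (SD, n = 5), both with 0 past the test. The part of these lists in the values of Nfkbia was not tested.

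In PBS the gene nearest to a difference was Rela, which encodes the subunit of the classical NF-κB dimer that activates transcription. At ZT15 its 3 libraries were at 209, 231 and 257 CPM, below all 9 libraries of the other timepoints (274 to 401 CPM). In PBS 5.35% of all genes had 1 timepoint apart from the other 3 in this way. The test among timepoints in PBS gave a limma adjusted p of 0.637 (unadjusted p = 0.0269). At ZT15 WT libraries were at 290, 362, 396, 417 and 426 CPM and KO libraries at 412, 430 and 460 CPM, so that neither group overlapped with PBS at this time, as for 19.4% (WT) and 30.6% (KO) of all genes. The difference between WT and PBS was 0.69 on the log2 scale at ZT15 and 0.17, 0.23 and 0.03 at ZT3, ZT9 and ZT21. The interaction of time with treatment did not pass the threshold for Rela (limma adjusted p = 0.221, unadjusted p = 0.00614). Over the 10 genes, 0 passed for treatment by time, where 0.00% of all genes did and 11.9% had an unadjusted p under 0.05 (1 of the 10 genes, Rela), and 0 passed for genotype by time, where 0.0502% of all genes did and 18.3% had an unadjusted p under 0.05 (0 of the 10 genes).

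**Figure D2:**
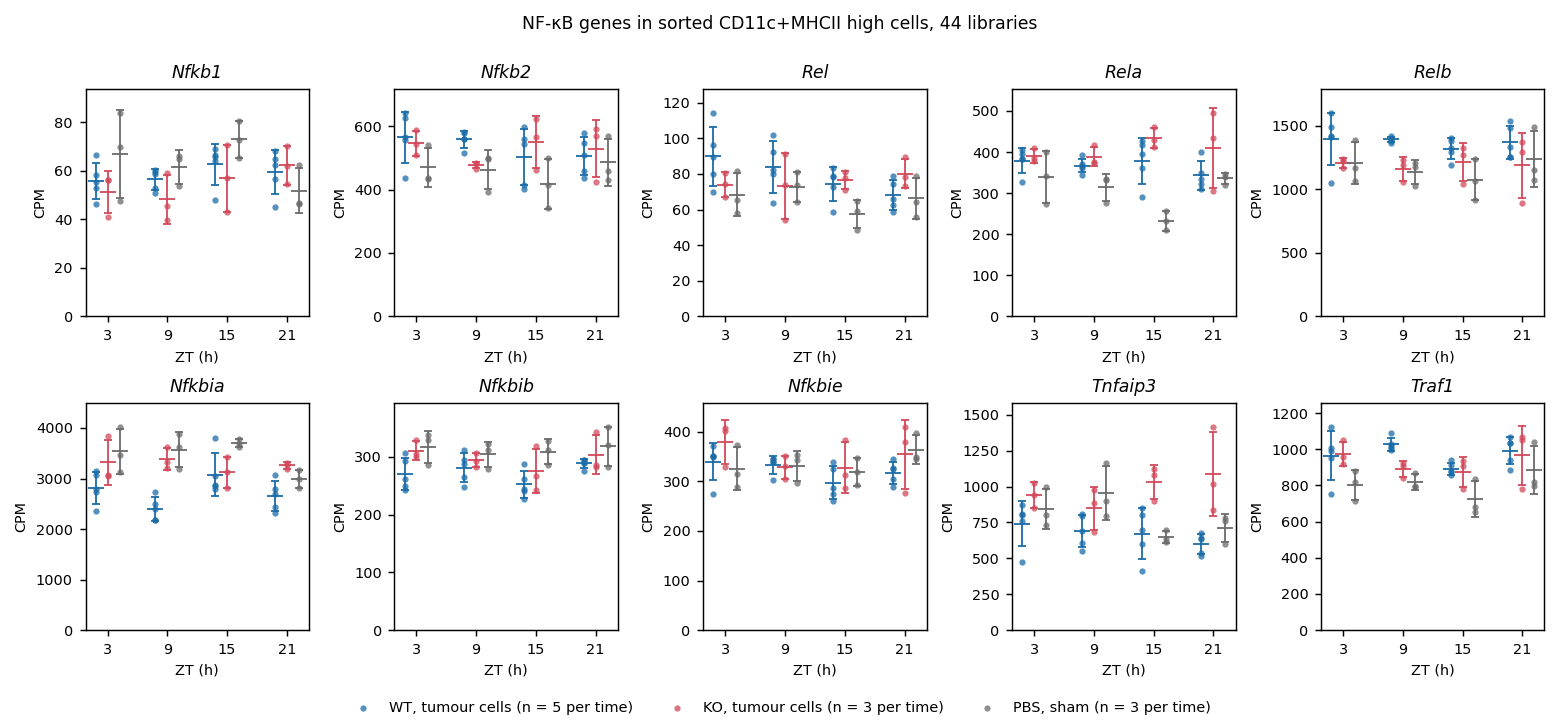
CPM of each gene against ZT in hours, from 0 on a linear axis, with 1 point per library and a bar for the mean ± SD of each group (n = 5 for WT, n = 3 for KO and for PBS). No gene passed a test of time in the main fit. Rela in PBS was lowest at ZT15 (209 to 257 CPM). The mean of Tnfaip3 was higher in KO than in WT at all 4 timepoints.

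Groups were next compared over all 4 timepoints. In WT, 7 of the 10 genes differed from PBS (limma, adjusted p under 0.05) against 37.9% of all genes tested, and 8 had an unadjusted p under 0.05 against 45.8%. The subunit genes Nfkb2, Rel, Rela and Relb and the adaptor gene Traf1 were higher in WT, 5 genes against 13.3% of all genes. The inhibitor genes Nfkbia and Nfkbib were lower in WT, 2 genes against 24.6% of all genes. All 7 differences were small, from 12.5% lower to 20.9% lower for the inhibitors and from 16.2% to 21.5% higher for the others, and in no gene did all WT libraries lie on one side of all PBS libraries, as they did for 2.15% of all genes. The median log2 difference was 0.08 over the 10 genes and −0.04 over all genes. In bulk samples, fewer cells of a type and less RNA per cell cannot be told apart.

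Among the subunits, Rela (chr19:5637483-5648130, plus strand, ENSMUSG00000024927) had the largest log2 difference. It ranged from 290 to 426 CPM in WT, with a median of 369, and from 209 to 401 CPM in PBS, with a median of 325. Of the 20 WT libraries, 17 were above the PBS median, and 5 PBS libraries were below every WT library. The log2 difference was 0.28 (standard error 0.06, limma adjusted p = 0.00087). The mean of WT was higher at all 4 timepoints, most of all at ZT15.

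Relb (chr7:19606217-19629438, minus strand, ENSMUSG00000002983), whose product pairs with processed NFKB2, ranged from 1049 to 1595 CPM in WT, with a median of 1385, and from 916 to 1487 CPM in PBS, with a median of 1159. The ranges overlapped widely, yet 19 of 20 WT libraries were above the PBS median. The log2 difference was 0.24 (standard error 0.06, limma adjusted p = 0.00429). Nfkb2 (chr19:46304320-46312385, plus strand, ENSMUSG00000025225) ranged from 403 to 640 CPM in WT, with a median of 557, and from 341 to 569 CPM in PBS, with a median of 448. Its log2 difference was 0.22 (standard error 0.08, limma adjusted p = 0.0268). The call for Nfkb2 was lost when any one of 5 PBS libraries was left out, namely ZT3 replicate 1, ZT3 replicate 3, ZT9 replicate 2, ZT15 replicate 2 or ZT21 replicate 1, with a limma adjusted p between 0.0501 and 0.0689.

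Rel (chr11:23736847-23770970, minus strand, ENSMUSG00000020275) ranged from 58.6 to 114 CPM in WT, with a median of 79.0, and from 48.7 to 81.4 CPM in PBS, with a median of 64.5. In WT, 7 libraries were above every PBS library. The log2 difference was 0.25 (standard error 0.08, limma adjusted p = 0.0207), and without PBS ZT15 replicate 2 the adjusted p was 0.0501. Nfkb1 (chr3:135584655-135691547, minus strand, ENSMUSG00000028163), which encodes the precursor of p50, was at 45.3–68.9 CPM in WT and 46.3–83.7 CPM in PBS and did not pass the test (log2 difference −0.10, standard error 0.08, limma adjusted p = 0.388).

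Of the inhibitors, Nfkbia (chr12:55489410-55492647, minus strand, ENSMUSG00000021025) had the smallest p of the 10 genes. It ranged from 2179 to 3806 CPM in WT, with a median of 2762, and from 2821 to 4014 CPM in PBS, with a median of 3544. Only 1 of 20 WT libraries was above the PBS median, and 13 were below every PBS library. The log2 difference of Nfkbia was −0.34 (standard error 0.06, limma adjusted p = 7e-05), and its mean was lower at each of the 4 timepoints, by −0.57 at ZT9 and by −0.18 to −0.33 at the others. Nfkbib (chr7:28758251-28767512, minus strand, ENSMUSG00000030595) ranged from 227 to 311 CPM in WT and from 279 to 351 CPM in PBS. None of the 20 WT libraries was above the PBS median of 316 CPM. Its log2 difference was −0.19 (standard error 0.05, limma adjusted p = 0.00413), and in 31 of 44 libraries its deposited value was not a whole number of reads. Nfkbie (chr17:45555703-45563169, plus strand, ENSMUSG00000023947) was at 261–371 CPM in WT and 288–397 CPM in PBS and did not pass the test (log2 difference −0.06, standard error 0.06, limma adjusted p = 0.473).

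Tnfaip3 (chr10:19000910-19015657, minus strand, ENSMUSG00000019850) encodes A20, a ubiquitin-editing enzyme that shuts off signals to NF-κB. It was at 412–870 CPM in WT, with a median of 683, and at 599–1163 CPM in PBS, with a median of 769, and did not pass the test (log2 difference −0.23, standard error 0.10, limma adjusted p = 0.0851). Traf1 (chr2:34941750-34961772, minus strand, ENSMUSG00000026875) encodes an adaptor of TNF receptor family members that is itself induced by NF-κB. It ranged from 751 to 1122 CPM in WT, with a median of 993, and from 656 to 1039 CPM in PBS, with a median of 808. In WT, 19 of 20 libraries were above the PBS median. Its log2 difference was 0.27 (standard error 0.06, limma adjusted p = 0.000534).

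In the comparison of KO with WT, both with tumour cells, 3 of the 10 genes differed against 33.7% of all genes tested, and 5 had an unadjusted p under 0.05 against 43.0%. Tnfaip3 and Nfkbia were higher in libraries labelled KO, 2 genes against 23.5% of all genes, and Relb was lower, 1 gene against 10.2%. No gene separated the groups fully, as 0.903% of all genes did. The median log2 difference was 0.04 over the 10 genes and 0.10 over all genes. A scaling by the median of ratios moved the median of all genes from 0.10 to 0.01. Under that scaling 3 genes were again called, but 1 of them was higher and 2 were lower, since Nfkbia no longer passed (0.17, limma adjusted p = 0.0802) and Traf1 did (−0.16, limma adjusted p = 0.0259), and 14.6% and 14.7% of all genes were higher and lower. With array weights, which give noisier libraries less influence, 7 were called, Nfkb1 (−0.19), Rela (0.14), Nfkbib (0.16) and Nfkbie (0.13) in addition, with limma adjusted p = 0.0495, 0.0381, 0.0121 and 0.0478. This comparison and that of WT with PBS share the 20 WT libraries, so the 2 sets of values are not independent.

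Tnfaip3 had the largest difference of any of the 10 genes. In KO it was at 848, 940 and 1028 CPM at ZT3, at 684, 886 and 975 CPM at ZT9, at 900, 1080 and 1120 CPM at ZT15 and at 838, 1015 and 1413 CPM at ZT21. In WT it ranged from 412 to 870 CPM, with a median of 683. All 12 KO libraries were above the WT median and 9 were above every WT library. At ZT15 and ZT21 the groups did not overlap, as for 23.5% and 19.5% of all genes. The log2 difference was 0.54 (standard error 0.11, limma adjusted p = 0.00033), or 45.2% higher, and 0.44 under the scaling by the median of ratios (limma adjusted p = 0.000557). When 1 library at a time was left out it lay between 0.49 and 0.58.

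Nfkbia ranged from 2808 to 3832 CPM in KO, with a median of 3234, and all 12 libraries were above the WT median of 2762 CPM. The highest WT library, ZT15 replicate 2 with 3806 CPM, exceeded all but 1 of them. The log2 difference was 0.26 (standard error 0.06, limma adjusted p = 0.00162), with values of 0.23, 0.50, 0.03 and 0.30 at ZT3, ZT9, ZT15 and ZT21. Relb ranged from 894 to 1374 CPM in KO, with a median of 1224, and none of the 12 libraries was above the WT median of 1385 CPM. Its log2 difference was −0.20 (standard error 0.07, limma adjusted p = 0.0178). The lowest KO library for Relb was ZT21 replicate 3, and without it the difference was −0.15 (limma adjusted p = 0.0441). Without that library Rela, at 304–494 CPM in KO, was also called (0.19, limma adjusted p = 0.0117, against 0.14 and 0.0934 with it), whereas under the scaling by the median of ratios its difference was 0.05 (limma adjusted p = 0.606).

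KO was also set beside PBS, a comparison in which both genotype and treatment differ. Of the 10 genes, 1 was called, in the higher direction, against 9.73% of all genes tested (5.43% higher and 4.30% lower), and 5 had an unadjusted p under 0.05 against 27.7%. None separated the groups fully, as 0.159% of all genes did. The gene called was Rela, with a median of 410 CPM in KO and 325 CPM in PBS. In KO, 11 of 12 libraries were above the PBS median and 7 were above every PBS library. The log2 difference was 0.42 (standard error 0.08, limma adjusted p = 0.00517), made up of 0.90 at ZT15 and 0.22, 0.31 and 0.26 at ZT3, ZT9 and ZT21. Tnfaip3 was at 684–1413 CPM in KO and 599–1163 CPM in PBS, 0.31 apart on the log2 scale (standard error 0.10) with a limma adjusted p of 0.0538. It was called when KO ZT9 replicate 2, KO ZT15 replicate 2, KO ZT21 replicate 3, PBS ZT3 replicate 2 or PBS ZT9 replicate 1 was left out, with a limma adjusted p from 0.0226 to 0.0457. Traf1 (0.20, limma adjusted p = 0.0929) was called, of these omissions, only without KO ZT21 replicate 3 (0.24, limma adjusted p = 0.0304). With array weights 4 genes were called in this comparison, Nfkb2, Rela, Tnfaip3 and Traf1. With a filter at a mean of at least 10 CPM, Tnfaip3 was called beside Rela. Nfkbia was at −0.07 (standard error 0.06, limma adjusted p = 0.486) and Relb at 0.04 (standard error 0.09, limma adjusted p = 0.823), with overlapping ranges when the 4 timepoints were pooled. For Nfkbia the mean difference changed sign among the timepoints. At ZT15 KO was at 2808, 3121 and 3428 CPM, below every PBS library (3629, 3676 and 3788 CPM), and at ZT21 KO was at 3193, 3265 and 3316 CPM, above every PBS library (2821, 2989 and 3163 CPM). With 3 libraries in each group such gaps were common, in 30.6% of all genes at ZT15 and in 18.0% at ZT21, and 4.59% of all genes had gaps in opposite directions at a pair of timepoints. The interaction of time with this pair of groups was not tested.

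**Figure D3:**
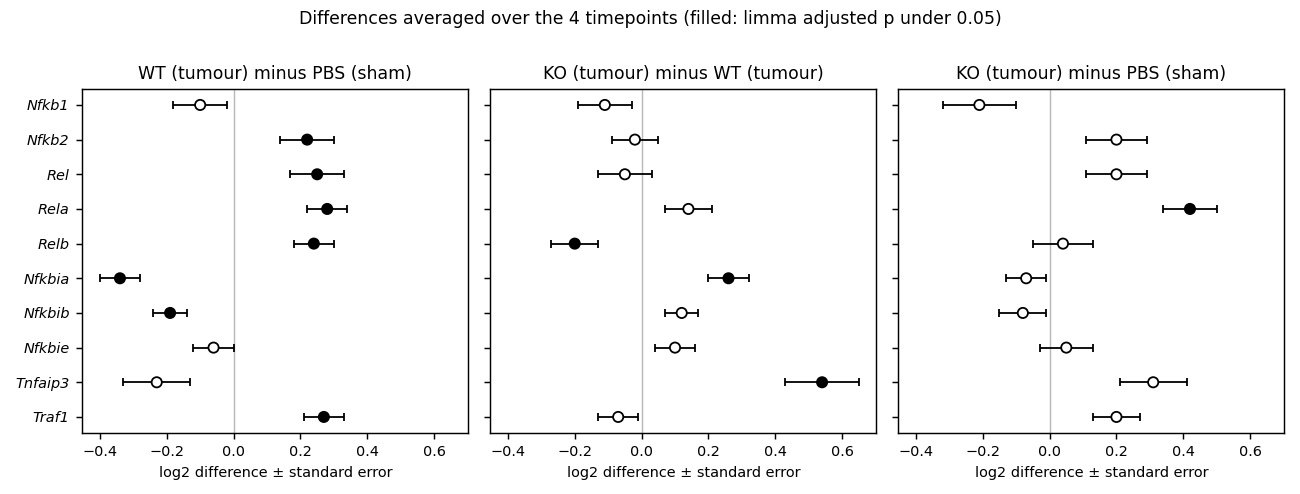
Log2 difference ± standard error of each gene averaged over the 4 timepoints, for WT minus PBS, KO minus WT and KO minus PBS. Filled points have a limma adjusted p under 0.05, which holds for 7, 3 and 1 of the 10 genes, and the largest difference is that of Tnfaip3 between KO and WT (0.54).

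Other genes of the pathway were examined as fixed lists. Over all genes tested, 13.3% were higher and 24.6% lower in WT than in PBS, 23.5% and 10.2% in KO than in WT, and 5.43% and 4.30% in KO than in PBS, and the median log2 differences were −0.04, 0.10 and 0.02. By the median of ratios the shares were 17.4% and 20.3%, then 14.6% and 14.7%, and in KO against PBS 467 genes were higher and 718 lower (649 and 515 as deposited). Of 10 receptor genes, 3 were higher and 3 lower in WT than in PBS, with a median log2 difference of 0.09. Tnfrsf11a, which encodes RANK, was higher (0.53, standard error 0.09, limma adjusted p = 4.05e-05), whereas Tnfrsf1a, which encodes the broadly expressed TNF receptor, was lower (−0.54, standard error 0.08, limma adjusted p = 2.13e-06), from 34.3 ± 5.56 CPM (SD, n = 12) in PBS to 23.2 ± 2.55 CPM (SD, n = 20) in WT. Il18r1, a chain of the IL-18 receptor, was lower as well (−1.41, standard error 0.24, limma adjusted p = 4.06e-05), at levels of 4.53 ± 2.43 CPM (SD, n = 20) in WT and 12.6 ± 5.50 CPM (SD, n = 12) in PBS. In KO against WT, 3 of the 10 receptors were higher and 0 lower (3 and 1 by the median of ratios; median 0.14), among them Tnfrsf1a (0.37) and Il18r1 (1.09). In KO against PBS 2 were higher and 0 lower (1 and 0 by the median of ratios; median 0.10), and Tnfrsf11a was one of them (0.46, limma adjusted p = 0.0127).

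Of 30 adaptor and kinase genes, 2 were higher and 4 lower in WT than in PBS, with a median log2 difference of 0.07. This list turned with the scaling, since by the median of ratios 10 were higher and 4 lower. Ikbkb, which encodes a catalytic subunit of the IκB kinase, was higher (0.29, standard error 0.10, limma adjusted p = 0.0197), and Map3k8, a kinase downstream of TNF and Toll-like receptors, was lower (−0.42, standard error 0.13, limma adjusted p = 0.0107). In KO against WT 9 were higher and 0 lower (5 and 3 by the median of ratios), with a median of 0.07. The higher share, 9 of 30 genes, was near that of all genes. Those of smallest p were Map3k8 (0.65), Ripk2 (0.56) and Bcl10 (0.23). In KO against PBS 5 were higher and 0 lower (2 and 0 by the median of ratios), with a median of 0.17, and the smallest p was that of Map3k7, which encodes the kinase TAK1 (0.56, standard error 0.13, limma adjusted p = 0.0111).

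Of 20 other inhibitors and feedback genes, 4 were higher and 7 lower in WT than in PBS (6 and 6 by the median of ratios), with a median log2 difference of −0.14. The list holds 3 atypical IκB genes whose products act in the nucleus, Nfkbiz, Nfkbid and Bcl3. The first 2 had the smallest p of the list, whereas Bcl3, named after its values were seen, did not pass the test (−0.09, standard error 0.05, limma adjusted p = 0.20). Nfkbiz was at 67.7 ± 31.6 CPM (SD, n = 20) in WT, 105 ± 16.5 CPM (SD, n = 12) in KO and 148 ± 42.1 CPM (SD, n = 12) in PBS. It was lower in WT than in PBS by −1.21 on the log2 scale (standard error 0.14, limma adjusted p = 6.82e-08). Nfkbid ranged from 57.8 to 139 CPM in WT, from 78.9 to 155 CPM in KO and from 99.7 to 201 CPM in PBS. Its log2 difference between WT and PBS was −0.87 (standard error 0.11, limma adjusted p = 2.71e-07). These differences were in the direction of that of Nfkbia and larger. In KO against PBS 0 of the 20 were higher and 3 lower, with a median of 0.07 and 11 of 20 above 0. Nfkbiz (−0.46) and Nfkbid (−0.42) were among the lower ones (limma adjusted p = 0.0159 and 0.0152). In KO against WT 5 of the 20 were higher and 2 lower (median 0.07), with Nfkbiz (0.75) and Zc3h12a (0.65), a ribonuclease that degrades inflammatory mRNA, among the higher.

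Of 32 NF-κB target genes, 6 were higher and 9 lower in WT than in PBS, with a median log2 difference of 0.05. The list did not move one way. The chemokine genes Ccl4, Ccl3 and Cxcl10 had the smallest p and were lower in WT, with log2 differences of −3.57, −2.68 and −1.68 (limma adjusted p = 2.89e-13, 2.59e-12 and 9.95e-10). Ccl4 ranged from 1.04 to 23.5 CPM in WT, from 13.8 to 47.9 CPM in KO and from 36.4 to 132 CPM in PBS. Macrophages and NK cells also express these chemokines. The list of 7 NK cell markers summed to 16.9–56.4 CPM in WT, 37.1–162 CPM in KO and 84.4–614 CPM in PBS, and the part of such cells was not tested. In KO against WT 10 targets were higher and 5 lower (7 and 6 by the median of ratios), with a median of −0.01. Ccl4 (2.16), Ccl3 (1.6) and Cxcl10 (1.13) were higher in KO (limma adjusted p = 1.37e-08, 5.91e-07 and 2.19e-06). Cxcl16, a chemokine of DCs and macrophages, was lower by −0.38 (standard error 0.04, limma adjusted p = 1.24e-07). In KO against PBS 4 were higher and 6 lower (median −0.02). Ccl4 (−1.41), Ccl3 (−1.08) and Cxcl10 (−0.54) were lower in KO (limma adjusted p = 0.000194, 0.00377 and 0.0239). Fscn1, an actin-bundling protein of mature DCs, was higher by 0.52 (limma adjusted p = 0.00329).

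Of the 25 immediate early and dissociation stress genes, which cells also induce during tissue digestion, 3 were higher and 20 lower in WT than in PBS, with a median of −0.75. Fos went from 1760 ± 319 CPM (SD, n = 12) in PBS to 620 ± 222 CPM (SD, n = 20) in WT (log2 difference −1.57, limma adjusted p = 5.85e-12), and was at 1437 ± 316 CPM (SD, n = 12) in KO. In KO against WT 19 were higher and 1 lower, with a median of 0.81, and in KO against PBS 3 were higher and 4 lower, with a median of −0.09. Over the same comparisons Nfkbia had log2 differences of −0.34, 0.26 and −0.07, and Tnfaip3 of −0.23, 0.54 and 0.31. Whether these genes and the immediate early list share a source was not tested.

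**Figure D4:**
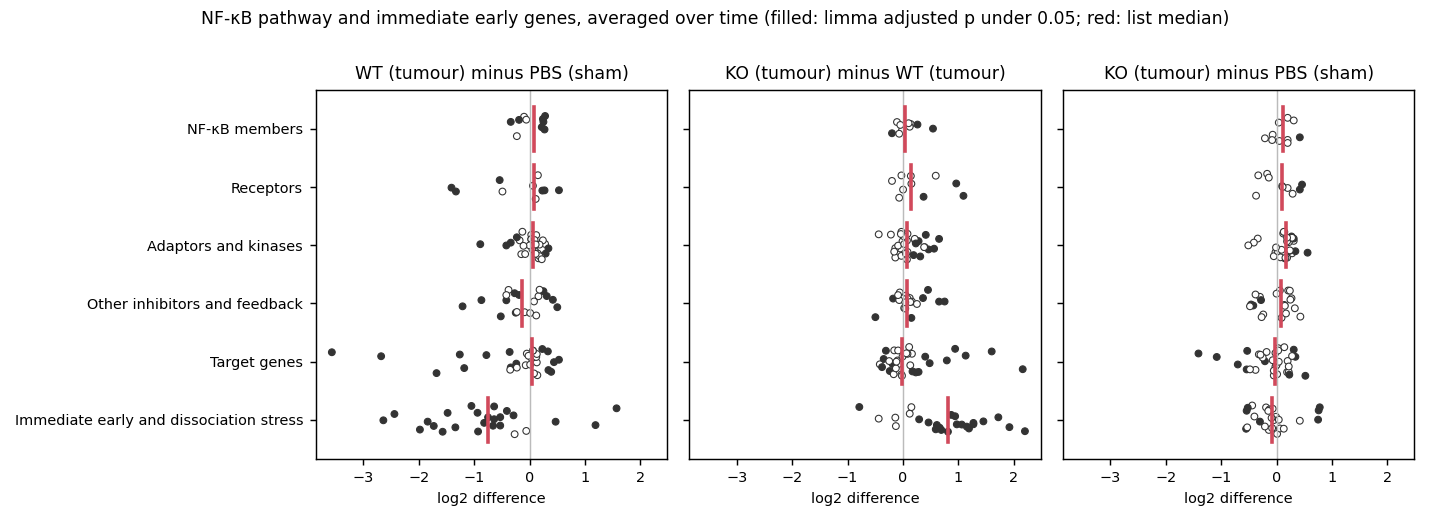
Log2 differences averaged over the 4 timepoints for the 10 genes and 5 pathway lists, 1 point per gene, filled where the limma adjusted p is under 0.05. Red bars are list medians, which for the immediate early list are −0.75, 0.81 and −0.09, and for the 10 genes 0.08, 0.04 and 0.12.

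Within a group and timepoint, the spread between mice varied from gene to gene. The SD on the log2 scale was lowest for Nfkbib (0.12) and Traf1 (0.14) and highest for Rel (0.22), Nfkb1 (0.23) and Tnfaip3 (0.28), against a median of 0.26 over genes with a mean of at least 10 CPM. To see which members varied together from mouse to mouse, each library's deviation from the mean of its group and timepoint was taken on the log2 scale, and Pearson's r was computed over the 44 libraries. Deviations of 2 genes in 1 library share its depth, scaling and cell composition, so these values are descriptions. The median over the 45 pairs was 0.15, with a range from −0.52 to 0.92.

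Relb and Traf1 had the highest r (0.92), and it was 0.88 in WT, 0.96 in KO and 0.92 in PBS. Nfkb2 followed Relb (0.85), Traf1 (0.80), Rela (0.79) and Nfkbie (0.78). The same single libraries stood out in several of these genes. WT ZT3 replicate 3 was the lowest of its 5 libraries for Relb (1049 CPM), Traf1 (751 CPM), Nfkb2 (436 CPM), Rela (327 CPM), Nfkbie (275 CPM) and Tnfaip3 (473 CPM), and the highest for Nfkbia (3155 CPM). KO ZT21 replicate 3 was the lowest KO library for Relb (894 CPM), Traf1 (779 CPM), Nfkb2 (425 CPM), Rela (304 CPM) and Nfkbie (276 CPM). PBS ZT21 replicate 2 was the highest PBS library for Relb (1487 CPM), Traf1 (1039 CPM) and Nfkb2 (569 CPM).

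Nfkbia and Nfkb1 stood apart from this set. For Nfkbia r was −0.52 with Nfkbie, −0.48 with Nfkb2 and 0.48 with Nfkb1, and that with Nfkbie was −0.70, −0.29 and −0.53 in WT, KO and PBS. Not all its values within a group were negative, with 0.19 for Rela and 0.07 for Tnfaip3 in PBS. Nfkb1 likewise had negative r with Relb, Traf1, Nfkb2, Rela, Nfkbie and Tnfaip3, from −0.37 (Nfkbie) to −0.07 (Rela). In PBS its r with Rela was 0.26. Against the mean of the immediate early list, r was 0.56 for Nfkbia, 0.55 for Rel, 0.40 for Nfkb1 and 0.35 for Tnfaip3, and between −0.16 and 0.02 for the other 6 genes. For comparison it was 0.80 for Nfkbiz and 0.83 for Nfkbid. Among the 7928 genes with a mean of at least 10 CPM, those most like Nfkbia over the 44 libraries were Cxcl1 (r = 0.80), Tnfsf9 (0.79) and Il1b (0.79). The genes most like Nfkb2 were Ssh1, Nfe2l1 and Rftn1 (each 0.90), those most like Relb were Traf1 (0.92), Triobp (0.89) and Ssh1 (0.87), and those most like Traf1 were Relb (0.92), Ikbkb (0.85) and Tbc1d8 (0.84). For Rela they were Galnt1 (0.84), Tnfrsf11a (0.82) and Ankrd13a (0.80), and for Tnfaip3 Zswim4 (0.87), Skil (0.85) and Uhmk1 (0.85). Rel (highest 0.69, Ccdc88a) and Nfkb1 (highest 0.66, Nipal1) had weaker best matches.

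**Figure D5:**
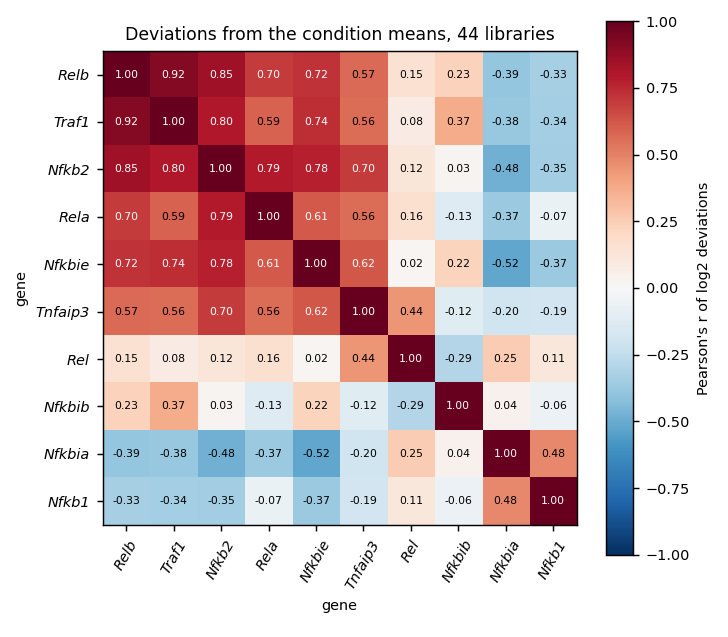
Pearson's r between the 10 genes for the deviation of each library from the mean of its group and timepoint, on the log2 scale, over 44 libraries. Relb, Traf1, Nfkb2, Rela, Nfkbie and Tnfaip3 have an r of 0.56 or more with each other. Nfkbia has negative values with all 6 (from −0.52 to −0.20), and so has Nfkb1 (from −0.37 to −0.07).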

How the data were processed

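RNA-seq libraries of 44 mice were analysed. Single reads had been mapped by the authors to mm10 (STAR) and counted per gene (HTSeq, version 0.9.1), per the labels and methods. The authors deposited CPM, counts scaled by library size, for 14699 genes. No column lacked a sample label (0 unmapped). Values above 0 were whole multiples of 1 read in 87.4% to 89.3% of cases per library (tolerance 0.01 reads), so no test for read counts was run, and depth was read from these steps. Values were analysed as log2(CPM + 0.5), which understates changes of low genes. The 11963 genes that reached 1 CPM in 5 or more libraries were kept. The test was limma (version 3.58.1, R 4.3.3), adjusted by Benjamini–Hochberg across the genes kept, for a 24-h cosinor, the timepoints and ZT9 against ZT21 in each group, and for averaged group differences and interactions on the libraries of both groups. An adjusted p under 0.05 was called. The study tested count data with edgeR, which CPM do not allow.

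Exon lengths and gene coordinates were those of GENCODE for GRCm38, and promoters those of RefSeq for GRCm38.p6. Named genes were the 10 members, 3 genes per pathway list and averaged comparison (those of smallest p), 3 genes most correlated with each member, Arntl and DC markers. Members and lists were chosen with earlier results of these data known. Replicate numbers come from the labels. No pair of libraries, of 946, held identical values. Alternatives were pseudocounts of 1 and 0.1, no filter, a mean of at least 10 CPM, median-of-ratios scaling, array weights, a replicate block, and leaving out each library. Figures were drawn with matplotlib 3.10.9 in Python 3.11.15.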

Additional observations from a re-analysis of the deposited data

Results flagged for a closer look

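In each group of 5 WT mice at a timepoint, a library was singled out when the gap between it and its nearest neighbour was large relative to the range of the group (Dixon's 95% critical value for 5 values). This was so in 5 of 40 sets of values (10 genes at 4 timepoints). Chance gives about 1 in 20 for a single set, but the sets come from the same 20 libraries and the genes vary together, so the count of 5 is not set against that rate, and 2 of the 5 come from WT ZT3 replicate 3. Nfkb1 was lowest in WT ZT15 replicate 3 (48.1 CPM, with a median of 65.8 CPM in that group). Nfkbia was highest in WT ZT15 replicate 2 (3806 CPM, median 2873 CPM). Nfkbie was lowest in WT ZT3 replicate 3 (275 CPM, median 351 CPM) and in WT ZT9 replicate 1 (302 CPM, median 338 CPM). Tnfaip3 was lowest in WT ZT3 replicate 3 (473 CPM, median 801 CPM). The rule was applied to deposited values, and that library had the lowest factor of all libraries under median-of-ratios scaling (0.813). The groups of 3 KO or PBS mice were too small for this rule.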

How the results depend on the processing

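Of the counts of called genes, those of the cosinor, of ZT9 against ZT21 and of the interactions stayed within 1.5 times their value under each alternative run. With array weights, 1 gene, Nfkbia (limma adjusted p = 0.0421), was called among timepoints in WT (0 otherwise), 7 in KO against WT and 4 in KO against PBS (Nfkb2, Rela, Tnfaip3 and Traf1), and with a mean of at least 10 CPM 2 (Rela and Tnfaip3) were called in KO against PBS. Leaving out 1 library at a time gave 5 to 7 genes for WT against PBS, 3 to 4 for KO against WT and 1 to 3 for KO against PBS. Signs changed for differences that had not been called. With median-of-ratios scaling, ZT9 against ZT21 became −0.02 for Relb in WT and, in KO, 0.08 for Rela, 0.12 for Relb, 0.09 for Nfkbib, 0.04 for Nfkbie and 0.03 for Traf1, and Relb became −0.01 in KO against PBS. Rel became 0.01 in KO against WT with array weights. Leaving out libraries, Nfkb2 ranged from −0.04 to 0.02 and Rel from −0.09 to 0 in KO against WT. For ZT9 against ZT21 the same omissions gave, in WT, 0 to 0.07 for Relb and −0.08 to 0 for Nfkbib, in KO, −0.34 to 0.03 for Rel, −0.25 to 0.09 for Rela, −0.20 to 0.11 for Relb, −0.09 to 0.05 for Nfkbib and −0.26 to 0.02 for Nfkbie, and in PBS, −0.15 to 0.05 for Nfkb2, −0.21 to 0.02 for Relb, −0.15 to 0.01 for Nfkbib and −0.17 to 0.02 for Traf1. The cause of these changes was not tested.

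No pairing of mice by replicate number was seen, since deviations of libraries with the same number had a median r of −0.01 in WT, 0.01 in KO and −0.02 in PBS. A batch that spans several numbers was not tested. With the replicate number as a block, 5 genes were called in WT against PBS (Nfkb2 and Relb were lost, with limma adjusted p = 0.147 and 0.0533), 2 in KO against WT (Relb was lost, with −0.15 and adjusted p = 0.115, and Nfkb2 became 0.02) and 1 in KO against PBS.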
